A study of Mus musculus with 8 samples.

Results

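Wnt pathway genes were followed in the embryonic mouse atrioventricular canal, whose endocardial cushions give rise to valve tissue. The genes were chosen by symbol: all Wnt, Frizzled (Fzd), Sfrp, Dkk and Rspo genes, together with Lrp5, Lrp6, Frzb, Wif1 and the main intracellular effectors. This gave 58 genes with 123 probe sets, of 18193 named genes and 45101 probe sets on the array. Tcf7, a nuclear factor on the same list, had no probe set with a single gene symbol and is not analysed here.

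Mutant canals came as 4 pools, labelled as homozygous for the floxed Gata4 allele and carrying the T2Cre transgene. T2Cre is Cre recombinase driven by the Tie2 promoter, which targets Gata4 deletion to endothelium and to its descendants, cushion mesenchyme included. The 4 control pools were homozygous for the floxed allele and are not labelled as carrying Cre, so that loss of Gata4 and presence of Cre cannot be told apart. All mice were of a mixed C57BL6/129 background, each pool held 10 microdissected canals, and the embryonic age is not given in the labels. The design text states that 2 controls were excluded for noise without naming them, and all 4 deposited control arrays were used.

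Wnt proteins are secreted ligands that bind Frizzled receptors and the co-receptors Lrp5 and Lrp6 at the cell surface. In the canonical branch, Dishevelled proteins then hold off a destruction complex of Axin, Apc and Gsk3, beta-catenin (Ctnnb1) accumulates, and it joins Lef1 and other TCF proteins on target genes. Axin2, Nkd1 and Lef1 are themselves commonly used target genes of this branch, so they serve as readouts. In the mouse heart, endothelial beta-catenin is needed for the epithelial to mesenchymal transition of the cushions, and in zebrafish loss of Apc enlarges the cushions.

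The promoters of 3 genes are shown as examples, picked with the values known from the genes whose windows hold letters read by TCF or GATA factors. Dkk1, Wnt2 and the dimmer Fzd1 probe set had an unadjusted p under 0.05 in limma and are described with their values below. Each sequence is the 250 bases before the RefSeq start on build GRCm38.p6, written 5′ to 3′ on the strand of the gene. Capitals mark CTTTGAA or CTTTGAT, here called TCF letters, and AGATAA or TGATAA, here called GATA letters, found on either strand. These are only part of the letters that TCF and GATA factors read. Other forms were not searched, marked or counted, also where they occur in the windows shown. The TCF letters do not overlap the GATA letters.
Dkk1 (chr19:30549497-30549746, minus strand): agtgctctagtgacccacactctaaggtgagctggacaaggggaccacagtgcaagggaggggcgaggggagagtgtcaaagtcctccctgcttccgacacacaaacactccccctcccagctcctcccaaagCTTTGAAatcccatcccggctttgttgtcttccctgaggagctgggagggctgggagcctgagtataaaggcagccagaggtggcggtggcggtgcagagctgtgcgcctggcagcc
Fzd1 (chr5:4758217-4758466, minus strand): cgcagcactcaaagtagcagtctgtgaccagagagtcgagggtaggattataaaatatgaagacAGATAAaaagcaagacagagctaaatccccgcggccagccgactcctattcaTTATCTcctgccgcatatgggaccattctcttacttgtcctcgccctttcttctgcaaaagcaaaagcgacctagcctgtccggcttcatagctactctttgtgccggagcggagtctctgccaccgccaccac
Wnt2 (chr6:18030446-18030695, minus strand): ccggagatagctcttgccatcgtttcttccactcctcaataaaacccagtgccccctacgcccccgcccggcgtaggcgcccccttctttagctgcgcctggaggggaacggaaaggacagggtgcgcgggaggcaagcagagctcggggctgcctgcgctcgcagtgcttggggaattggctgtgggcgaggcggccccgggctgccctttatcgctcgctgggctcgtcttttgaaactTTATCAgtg
The Dkk1 window holds 1 TCF match, 117 bases before the start. The Fzd1 window holds 2 GATA matches, 186 and 134 bases before the start, and the Wnt2 window holds 1, which begins 9 bases before the start. Windows were available for 40 of the 58 genes, with 48 starts. TCF letters occurred in 3 of these 48 windows (6.25%) and in 7.48% of 32851 promoters, and GATA letters in 6 of 48 (12.5%) and in 16.6%. Windows with matches that are not shown were those of Wnt5b and Wnt11 for TCF, and of Lef1, Sfrp5, Tcf7l2 and Wnt8b for GATA. Of these, Wnt11, Sfrp5 and Tcf7l2 had an unadjusted p over 0.05 on the brightest probe set, Lef1 one under it, and Wnt5b and Wnt8b were not tested for a change. A match of this kind describes letters only, and a link to the changes was not tested.

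No Wnt pathway gene passed the test between mutant and control canals. Of the 58 genes, 35 had a brightest probe set bright enough to be tested, and 0 of these were past an adjusted p of 0.05 in limma, where 0.0663% of 12069 named genes were. The smallest p-values belonged to the antagonists Dkk1 and Dkk3 and the receptor Fzd5, with positive changes, and to the target gene Axin2, the nuclear factor Lef1 and the ligand Wnt2, with negative ones (for Lef1 the sign turned, to 0.17, when arrays were centred on their medians). At an unadjusted p under 0.05 there were 3 higher genes (Dkk1, Dkk3 and Fzd5) and 3 lower ones (Axin2, Lef1 and Wnt2), beside 7.31% and 5.61% of all named genes. Dkk1 and Fzd5 were above background on only 1 control array and dropped out under a filter on background, which left 1 higher gene, so these counts are not read as support for a direction. Over all 69 tested probe sets of the pathway, 0 were past the adjusted threshold (0.0444% of the 27022 on the array), 7 were higher and 8 lower at an unadjusted p under 0.05 (7.31% and 5.33%), and 3 and 3 had groups that did not overlap (4.44% and 3.19%).

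The direction of change was mixed over the pathway. Of the 35 tested genes, 17 had positive and 18 negative changes, with a median log2 change of -0.04, beside 0.02 over all named genes tested. Mutant and control arrays did not overlap for 1 higher gene, Dkk1, and 1 lower gene, Axin2, beside 4.97% and 3.19% of all named genes. Apart from the marker sums and background medians below, values are log2(signal + 16) after quantile normalization. A log2 change is the mutant level minus the control level from the weighted fit. The added 16 shrinks differences of dim genes, but the changes are not lower bounds. Beside the authors' scaling some were larger (Dkk1 1.39 against 0.97, Fzd5 2.09 against 1.82) and some smaller in size (Wnt7b -0.98 against -1.52). Above background means brighter than the 90th percentile of the array's 27 bacterial control probe sets, and well measured means above background on at least 2 arrays of each group. By that measure 32 of the 58 genes were well measured, and 31 of these were tested.

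**Figure D1:**
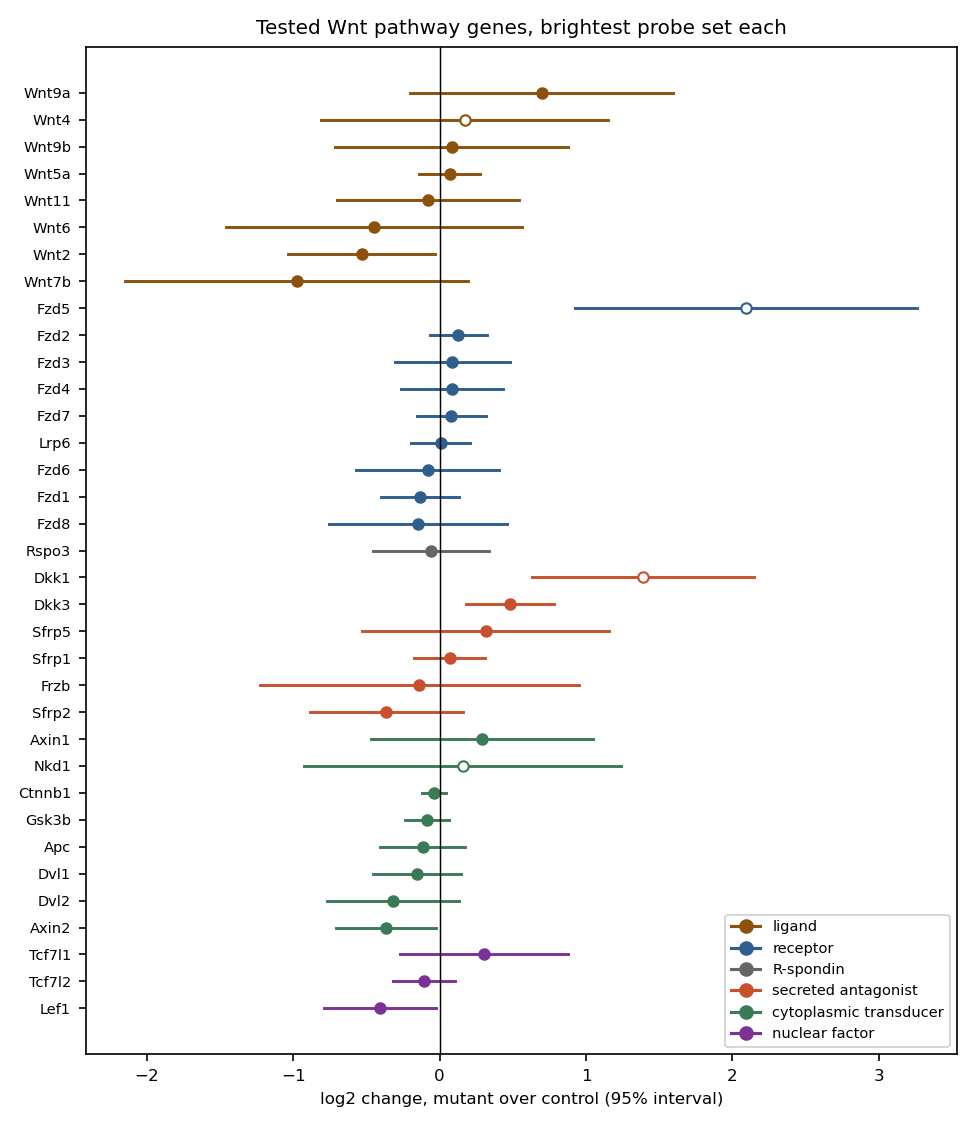
Log2 change, mutant over control, of the brightest probe set of each of the 35 tested genes, with the 95% interval as a line, coloured by role. Filled points are well measured genes, and the open points (Dkk1, Fzd5, Nkd1 and Wnt4) were above background on fewer than 2 control arrays. Dkk1, Dkk3 and Fzd5 lie to the right with intervals above 0, and Axin2, Lef1 and Wnt2 to the left with intervals below 0.

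The arrays differed in noise, which touches every dim gene. Control arrays 2 and 3 had median signals of 158 and 135 on the bacterial controls, against 4.0 to 26.0 on the mutant arrays, 39.3 on control 1 and 19.4 on control 4, and their fitted weights were the smallest, at 0.302 and 0.35. Of the 58 brightest probe sets, 36 to 40 were above background on the mutant arrays and 27 to 36 on the control arrays, with the lowest counts, 27 and 32, on controls 2 and 3. Gata4 lay between 10.93 and 11.28 on mutant and between 11.07 and 11.42 on control arrays, a log2 change of -0.15 (SE 0.11, adjusted p = 0.585), which does not check the deletion, since myocardium keeps the gene. Its dimmer probe set, low on controls 2 and 3 and above background on 2 controls, had 0.98 (SE 0.46, adjusted p = 0.388). Erbb3, at -1.12, and the endothelial receptor Tek, at -0.72, both passed and are points of comparison for the sizes below. Erbb3 did not pass with controls 2 and 3 left out (adjusted p = 0.126) or without mutant 1 (0.0551), and Tek did not relative to the median after centring (-0.17, adjusted p = 0.642). The tissue carried its defining markers: all 6 genes listed for cushion mesenchyme, all 7 for endothelium and endocardium, all 4 for atrioventricular canal muscle and 4 of 5 for cardiomyocytes were well measured.

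Markers of the cell types in the canal were set beside these values. Sums are of the deposited linear signals on the authors' scaling, without quantile normalization. They rest mostly on the brightest genes of a list, and the differences in noise between arrays enter them. The summed signal of the 6 cushion mesenchyme markers (Twist1, Sox9, Postn, Msx1, Pdgfra and Tbx20) was 21420 to 25310 on mutant arrays and 26080 to 29570 on control arrays. Of their normalized log2 changes, from -1.33 for Twist1 to -0.049 for Tbx20, 0 of the 6 were positive. For 5 cardiomyocyte markers the sums were 58070 to 65670 on mutant and 48940 to 57660 on control arrays. All 5 log2 changes were positive, at 0.031 to 0.13 for Myh7, Actc1, Myh6 and Tnnt2. Nkx2-5 had 1.05 and was above background on only 1 control array. The 6 epicardial markers summed to 4736 to 8160 on mutant and 4236 to 4765 on control arrays. For them 5 of 5 tested log2 changes were positive, at 0.13 to 0.68. Of the cushion, cardiomyocyte and epicardial markers 0 passed, and 53.8% of all tested probe sets had positive changes. The 7 endothelial markers, 4 of them with positive changes, overlapped, at 7986 to 8951 on mutant and 8553 to 10640 on control arrays. The 4 canal muscle markers, 3 of them with positive changes, summed to 10990 to 12150 on mutant and 8981 to 11660 on control arrays. Erythroid sums were 37920 to 48490 on mutant and 31730 to 50260 on control arrays, foregut and liver sums 152.1 to 1297 and 311.3 to 1233, and neural sums 168.6 to 242 and 223 to 454.1, with Foxd3 above background on no array. Positive changes numbered 0 of 5 tested for erythroid, 0 of 2 for foregut and liver and 0 of 1 for neural markers. Fewer cells of a type and less RNA per cell cannot be told apart in pooled canals, and the part of these markers in the values of Axin2, Lef1, Wnt2, Dkk1 and Dkk3 was not tested.

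Among the secreted antagonists, which keep Wnt proteins or their receptors from acting, Dkk3 had the smallest p-value of the well measured Wnt genes. Its brighter probe set had 11.88, 11.39, 11.65 and 11.91 in mutants 1 to 4, against 11.56, 11.19, 10.90 and 10.97 in controls 1 to 4. Only mutant 2 and control 1 crossed there, and the log2 change was 0.48 (SE 0.14, adjusted p = 0.245), a 1.39-fold difference. The dimmer probe set had 10.39, 10.21, 10.03 and 10.30 in mutants 1 to 4, against 9.79, 9.82, 9.77 and 9.71 in controls 1 to 4. Every mutant lay above every control on it, at 0.43 (SE 0.14, adjusted p = 0.264), so the 2 probe sets gave a like size. Dkk3 is the divergent member of the Dickkopf family, and its action on Wnt signalling is less settled than that of Dkk1.

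Dkk1, which binds Lrp6 and blocks canonical signalling, had 8.39, 8.48, 7.64 and 7.96 in mutants 1 to 4, against 6.28, 6.41, 6.08 and 7.33 in controls 1 to 4. All 4 mutants were above all 4 controls, with a log2 change of 1.39 (SE 0.36, adjusted p = 0.204). The probe set was above background on 4 mutant arrays and only on control 4 among the controls, so the size is poorly fixed. Its second probe set was above background on 2 mutant arrays and on 0 control arrays, which gives no fold. Neither antagonist passed, and both passed in a fit without control 1 (adjusted p = 0.0172 for Dkk3 and 0.0430 for Dkk1) or without control 4 (0.0487 and 0.0305). Without those arrays the noisy controls 2 and 3 made up most of the control group, and 1417 and 1291 probe sets of the array were then called higher, against 7 with all arrays. With controls 2 and 3 left out instead, the changes were 0.45 and 0.52 for the 2 Dkk3 probe sets and 1.42 for Dkk1, at adjusted p of 0.637, 0.495 and 0.451.

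Sfrp1, a soluble Frizzled-like protein that binds Wnt ligands, gave a mixed picture over 5 well measured probe sets. On the brightest it had 10.33, 10.42, 10.38 and 10.45 in mutants 1 to 4, against 10.41, 10.10, 10.20 and 10.34 in controls 1 to 4, a change of 0.067 (SE 0.12, adjusted p = 0.834). On the next it had 9.93, 9.72, 9.77 and 9.83 in mutants 1 to 4, against 9.43, 9.44, 9.62 and 9.51 in controls 1 to 4, with every mutant above every control and a change of 0.33 (SE 0.14, adjusted p = 0.358). The other 3 had log2 changes of 0.39, 0.52 and -0.21. Of the 5 values 4 were positive, and none passed.

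Sfrp2, of the same family, had 7.70, 7.88, 7.64 and 7.93 in mutants 1 to 4, against 8.23, 8.45, 8.18 and 7.87 in controls 1 to 4. Only control 4 lay within the mutant range, and the change was -0.36 (SE 0.25, adjusted p = 0.550). Frzb, another Frizzled-related antagonist known from cushion and cartilage tissue, had 5.24, 6.91, 7.37 and 7.13 in mutants 1 to 4, against 7.05, 7.95, 6.36 and 6.88 in controls 1 to 4, a wide spread in both groups with a change of -0.14 (SE 0.52, adjusted p = 0.932). Sfrp5 had 7.39, 8.03, 7.07 and 7.69 in mutants 1 to 4, against 7.66, 5.95, 6.16 and 7.11 in controls 1 to 4, of which 2 were above background, and its log2 change was 0.31 (SE 0.40, adjusted p = 0.769). For Sfrp5 that change was 1.18 without control 1, 0.98 without control 4 and 0.016 without control 3. Dkk2, Dkk4, Sfrp4 and Wif1 were above background on at most 1 array of a group and were not tested.

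The ligands were mostly dim in this tissue. Of 19 Wnt genes, 7 were well measured (Wnt2, Wnt5a, Wnt6, Wnt7b, Wnt9a, Wnt9b and Wnt11), and 5 were above background on no array (Wnt1, Wnt3, Wnt10a, Wnt10b and Wnt16). For ligands 8 genes were tested, with 4 positive and 4 negative changes. Wnt2, a ligand of heart and lung mesoderm, had 7.80, 8.34, 8.17 and 8.02 in mutants 1 to 4, against 8.59, 9.51, 8.86 and 8.23 in controls 1 to 4. The highest mutant, mutant 2, reached above the lowest control, control 4, and the other 3 controls lay above all mutants. The change was -0.53 (SE 0.24, adjusted p = 0.374), with a 95% interval of -1.04 to -0.032, and it was -0.38 with controls 2 and 3 left out, -0.86 without control 1 and -0.91 without control 4.

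Wnt5a, a ligand of the beta-catenin independent branch known from the outflow tract, was measured on 4 probe sets. The brightest had 11.17, 11.37, 11.31 and 11.40 in mutants 1 to 4, against 11.35, 10.99, 11.09 and 11.26 in controls 1 to 4. The groups overlapped in part, and the change of 0.068 (SE 0.098, adjusted p = 0.798) had a 95% interval of -0.14 to 0.27. The other probe sets had log2 changes of -0.0015, 0.65 and -0.090, of which the middle one had a low control 2 (5.79, against 7.84 to 8.24 on the other controls).

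Wnt9b, known from endocardium that lines the valves, had 6.78, 8.31, 7.67 and 7.20 in mutants 1 to 4, against 7.10, 7.35, 6.71 and 8.01 in controls 1 to 4, and the groups overlapped, with 0.084 (SE 0.38, adjusted p = 0.945) for the log2 change. Wnt11, a ligand of the beta-catenin independent branch in heart muscle, had 7.34, 8.02, 7.38 and 7.83 in mutants 1 to 4, against 7.70, 8.40, 7.28 and 7.57 in controls 1 to 4, a change of -0.081 (SE 0.30, adjusted p = 0.930). Wnt9a had 7.77, 7.28, 7.73 and 8.79 in mutants 1 to 4, against 7.87, 6.22, 6.16 and 7.39 in controls 1 to 4, with low controls 2 and 3 and a change of 0.70 (SE 0.43, adjusted p = 0.50). Controls 1 and 4 fell inside the range of the mutants for Wnt9a, whose change was 1.64 without control 1, 1.41 without control 4, 0.41 without control 3 and 0.31 without mutant 4.

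Wnt6 had 7.33, 7.13, 6.0 and 6.26 in mutants 1 to 4, against 7.14, 5.71, 7.19 and 6.80 in controls 1 to 4, a weighted change of -0.45 (SE 0.48, adjusted p = 0.717) beside plain means of 6.68 ± 0.65 in mutants and 6.71 ± 0.69 in controls (SD, n = 4 each), and it was -0.12 without mutant 3, -0.22 without control 1 and -0.23 without control 4. Wnt7b had 6.61, 6.92, 5.05 and 6.74 in mutants 1 to 4, against 7.0, 7.54, 8.55 and 6.47 in controls 1 to 4, where mutant 3 was far below the rest, and the change was -0.98 (SE 0.56, adjusted p = 0.472). It was -0.33 without mutant 3, -1.73 without control 1 and -1.68 without control 4. Wnt4 was above background on 3 mutant arrays and on 0 control arrays, with 6.91, 6.88, 6.29 and 6.20 in mutants 1 to 4, against 6.07, 6.18, 6.94 and 6.33 in controls 1 to 4, and no size is given for it. The remaining 11 ligands were not tested.

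No receptor gene passed. Of 12 receptor genes, 8 were well measured (Fzd1, Fzd2, Fzd3, Fzd4, Fzd6, Fzd7, Fzd8 and Lrp6), and Fzd9 and Fzd10 were not tested. Fzd7 had 11.27, 11.11, 11.37 and 11.34 in mutants 1 to 4, against 11.14, 10.79, 11.32 and 11.50 in controls 1 to 4, a change of 0.081 (SE 0.11, adjusted p = 0.786). Fzd2, a receptor for Wnt5a, had 12.25, 12.30, 12.52 and 12.55 in mutants 1 to 4, against 12.20, 12.23, 12.55 and 12.48 in controls 1 to 4, a change of 0.13 (SE 0.092, adjusted p = 0.576). Its dimmer probe sets had log2 changes of -0.22 and 0.36, of opposite sign. Lrp6, the co-receptor of canonical signalling, had 12.39, 12.46, 12.26 and 12.06 in mutants 1 to 4, against 12.14, 12.12, 12.29 and 12.39 in controls 1 to 4. On their brightest probe sets Fzd4, known from vessels, had a log2 change of 0.085, Fzd6 one of -0.082 and Fzd8 one of -0.15. The next probe set had 0.33 for Fzd4 and 0.32 for Fzd8, where the sign was the opposite. That Fzd8 probe set was above background on 2 control arrays and low on controls 2 and 3 (4.98 and 5.23). The Lrp6 groups overlapped, and its change of 0.0065 (SE 0.097, adjusted p = 0.985) had an interval of -0.20 to 0.21.

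Fzd1 gave unlike values on its 2 probe sets. The brightest had 10.67, 10.43, 10.79 and 10.45 in mutants 1 to 4, against 10.67, 10.91, 11.01 and 10.72 in controls 1 to 4, and the groups overlapped with a change of -0.14 (SE 0.13, adjusted p = 0.676). The dimmer had 6.64, 6.42, 5.92 and 6.32 in mutants 1 to 4, against 7.28, 8.90, 8.35 and 7.06 in controls 1 to 4. All mutants lay below all controls there, with a change of -1.28 (SE 0.39, adjusted p = 0.249), but controls 2 and 3 were the highest, and the change was -0.85 with those 2 left out. It passed without control 1 (-2.05, adjusted p = 0.0276) and without control 4 (-1.99, adjusted p = 0.0276).

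Fzd5 and Fzd3 were picked after their values were seen. Fzd5 had 7.56, 7.39, 7.70 and 7.89 in mutants 1 to 4, against 4.72, 4.96, 4.86 and 7.53 in controls 1 to 4, so that control 4 stood with the mutants and the other 3 controls were far lower. It was above background on 4 mutant arrays and on control 4 alone. The log2 change was 2.09 (SE 0.56, adjusted p = 0.215), a size that rests on control values mostly not above background, and the gene was too dim to be tested without mutant 3 or mutant 4. It passed without control 1 (2.29, adjusted p = 0.0308), without control 3 (2.38, adjusted p = 0.0476) and without control 4 (2.81, adjusted p = 0.0206). Fzd3, with 6 well measured probe sets, had changes of 0.086 on the brightest and of 0.25, 0.35, -0.34, 0.86 and 0.87 on the others. The last 2 were within or near the mutant range on controls 1 and 4 and low on controls 2 and 3. The brighter of those 2 passed without control 1 (1.87, adjusted p = 0.0219) or control 4 (1.86, adjusted p = 0.0206) and was 0.33 with controls 2 and 3 left out. Lrp5 was above background on 0 mutant arrays and on 2 control arrays, with 5.93, 5.0, 5.71 and 4.85 in mutants 1 to 4, against 6.71, 6.10, 7.51 and 5.42 in controls 1 to 4. It was not tested, and no fold is given.

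**Figure D2:**
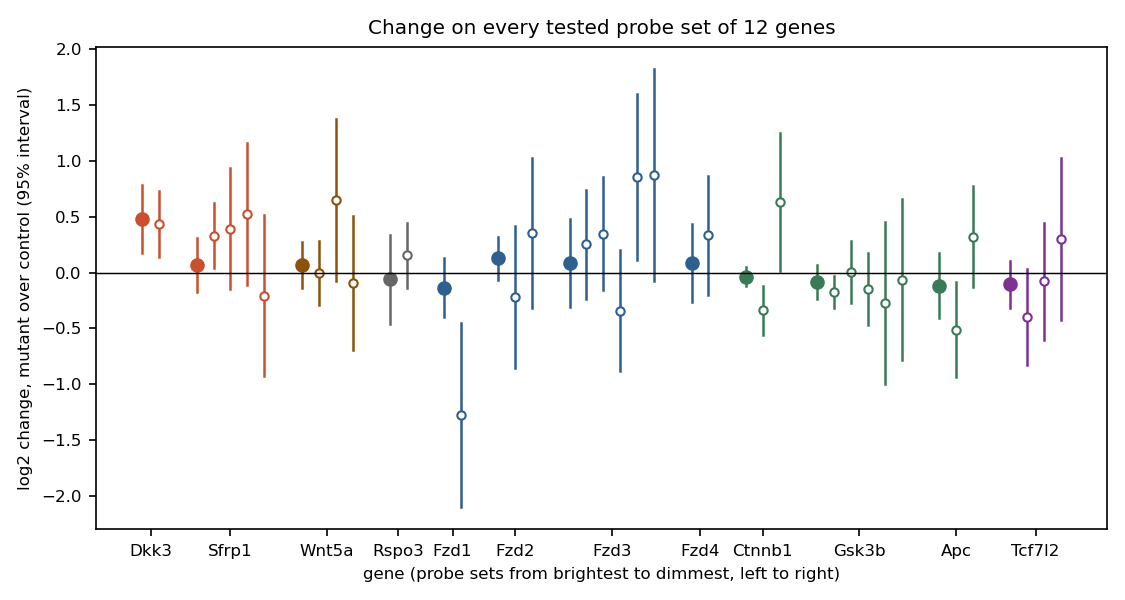
Log2 change, mutant over control, on every tested probe set of 12 genes with several probe sets, with 95% intervals; the filled point is the brightest probe set and the open points follow from brighter to dimmer. The 2 Dkk3 probe sets lie together near 0.48 and 0.43. Fzd1 and Fzd4 keep a single sign at different sizes, and each of the remaining genes has probe sets on both sides of 0.

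R-spondins raise Wnt signalling by protecting Frizzled and Lrp6 from removal. Rspo3, needed for coronary and placental vessels in the mouse, was the only one of 4 tested. Its brightest probe set had 10.95, 10.52, 11.02 and 10.32 in mutants 1 to 4, against 10.72, 11.02, 11.04 and 10.67 in controls 1 to 4. The groups overlapped, the log2 change was -0.059 (SE 0.19, adjusted p = 0.917), and on the second probe set it was 0.15 (SE 0.14, adjusted p = 0.663). Rspo1 was above background on 2 arrays of each group and was too dim for the test, Rspo2 was above background on 1 array of each group, and Rspo4 on none.

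In the cytoplasm, Axin2 was the only gene whose groups were separate in the lower direction on its brightest probe set. Axin2 is a scaffold of the destruction complex and a target of beta-catenin that feeds back on the pathway. It had 9.35, 9.52, 9.85 and 9.51 in mutants 1 to 4, against 9.86, 10.37, 10.08 and 9.98 in controls 1 to 4, so that the highest mutant, mutant 3, lay just below the lowest control, control 1. The change was -0.36 (SE 0.16, adjusted p = 0.374), with an interval of -0.71 to -0.022, a fold of 0.777. It was -0.39 with controls 2 and 3 left out, and in 18 alternatives it ranged from -0.53 to -0.26, with an adjusted p of 0.127 or more in each. Its second probe set was above background on 1 array of each group.

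Beta-catenin itself gave unlike values by probe set. The brightest Ctnnb1 probe set had 13.85, 13.82, 13.83 and 13.84 in mutants 1 to 4, against 13.84, 13.89, 13.87 and 13.91 in controls 1 to 4, a change of -0.036 (SE 0.039, adjusted p = 0.724) with an interval of -0.12 to 0.046. The second had 10.69, 10.65, 10.61 and 10.53 in mutants 1 to 4, against 10.98, 10.75, 11.04 and 10.91 in controls 1 to 4, with every mutant below every control and a change of -0.34 (SE 0.10, adjusted p = 0.246). The dimmest had the opposite sign, 0.63 (SE 0.29, adjusted p = 0.388). No direction can be given for the gene from these 3.

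None of the other scaffold and kinase genes passed. Gsk3b, the kinase that marks beta-catenin for removal, had 13.54, 13.52, 13.42 and 13.30 in mutants 1 to 4, against 13.49, 13.13, 13.64 and 13.58 in controls 1 to 4 on the brightest of 6 probe sets, a change of -0.086 (SE 0.072, adjusted p = 0.633). Its second probe set had a log2 change of -0.17 (SE 0.068, adjusted p = 0.338), and the other 4 had 0.0046, -0.15, -0.27 and -0.064. Apc had 10.20, 10.47, 10.25 and 9.97 in mutants 1 to 4, against 10.18, 10.46, 10.40 and 10.36 in controls 1 to 4, a change of -0.12 (SE 0.14, adjusted p = 0.747), and its next 2 probe sets had -0.51 and 0.32, of opposite sign. Axin1 had 6.72, 7.96, 7.89 and 8.03 in mutants 1 to 4, against 7.55, 6.92, 8.21 and 7.18 in controls 1 to 4, with a low mutant 1 and a change of 0.29 (SE 0.36, adjusted p = 0.762), which was 0.50 without mutant 1 and 0.10 without mutant 4.

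Dishevelled genes carry the signal from Frizzled to the destruction complex. Dvl1 had 10.47, 10.19, 10.57 and 10.64 in mutants 1 to 4, against 10.59, 10.29, 10.45 and 11.07 in controls 1 to 4, a change of -0.16 (SE 0.14, adjusted p = 0.665), and -0.28 on its other probe set. Dvl2 had 8.60, 8.50, 8.19 and 8.44 in mutants 1 to 4, against 8.79, 8.49, 8.36 and 8.77 in controls 1 to 4, a change of -0.32 (SE 0.21, adjusted p = 0.543), which was -0.10 without control 1 and -0.13 without control 4. Mutants and controls overlapped for both genes. Dvl3 and Nkd2 were above background on 0 mutant arrays and on 1 control array. Nkd1, an inducible antagonist of Dishevelled, was above background on 3 mutant arrays and on 0 control arrays on its brightest probe set, and no size is given.

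Among the nuclear factors, Lef1 had the most negative change. Its values were 12.38, 12.56, 12.63 and 12.03 in mutants 1 to 4, against 12.86, 12.58, 12.69 and 12.78 in controls 1 to 4. Mutant 3 alone reached into the control range, just above control 2, and mutant 4 was the lowest array. The change was -0.41 (SE 0.17, adjusted p = 0.374), a fold of 0.754. It was -0.42 with controls 2 and 3 left out and -0.24 without mutant 4, and 0.17 above the median of all probe sets when arrays were centred on their medians. Its dim second probe set had a log2 change of -0.34 (SE 0.67, adjusted p = 0.858).

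Tcf7l2, which pairs with beta-catenin in many tissues, had 11.66, 11.57, 11.71 and 11.43 in mutants 1 to 4, against 11.70, 11.52, 11.48 and 11.85 in controls 1 to 4 on the brightest of 4 probe sets, a change of -0.11 (SE 0.10, adjusted p = 0.677). The others had log2 changes of -0.39, -0.079 and 0.30. Tcf7l1, which acts mostly as a repressor, had 8.62, 8.71, 8.42 and 8.59 in mutants 1 to 4, against 8.54, 7.41, 7.06 and 8.55 in controls 1 to 4, with low controls 2 and 3 and a change of 0.30 (SE 0.27, adjusted p = 0.657). That change was 1.098 without control 1, 0.97 without control 4, 0.15 without control 2, 0.081 without control 3 and 0.048 with controls 2 and 3 left out. A dimmer Tcf7l1 probe set was above background on 4 mutant arrays and on 0 control arrays, and it was not tested. Its mutant mean was 1.32 times the mean background floor of the control arrays, a value without SE that was not followed with controls 2 and 3 left out.

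**Figure D3:**
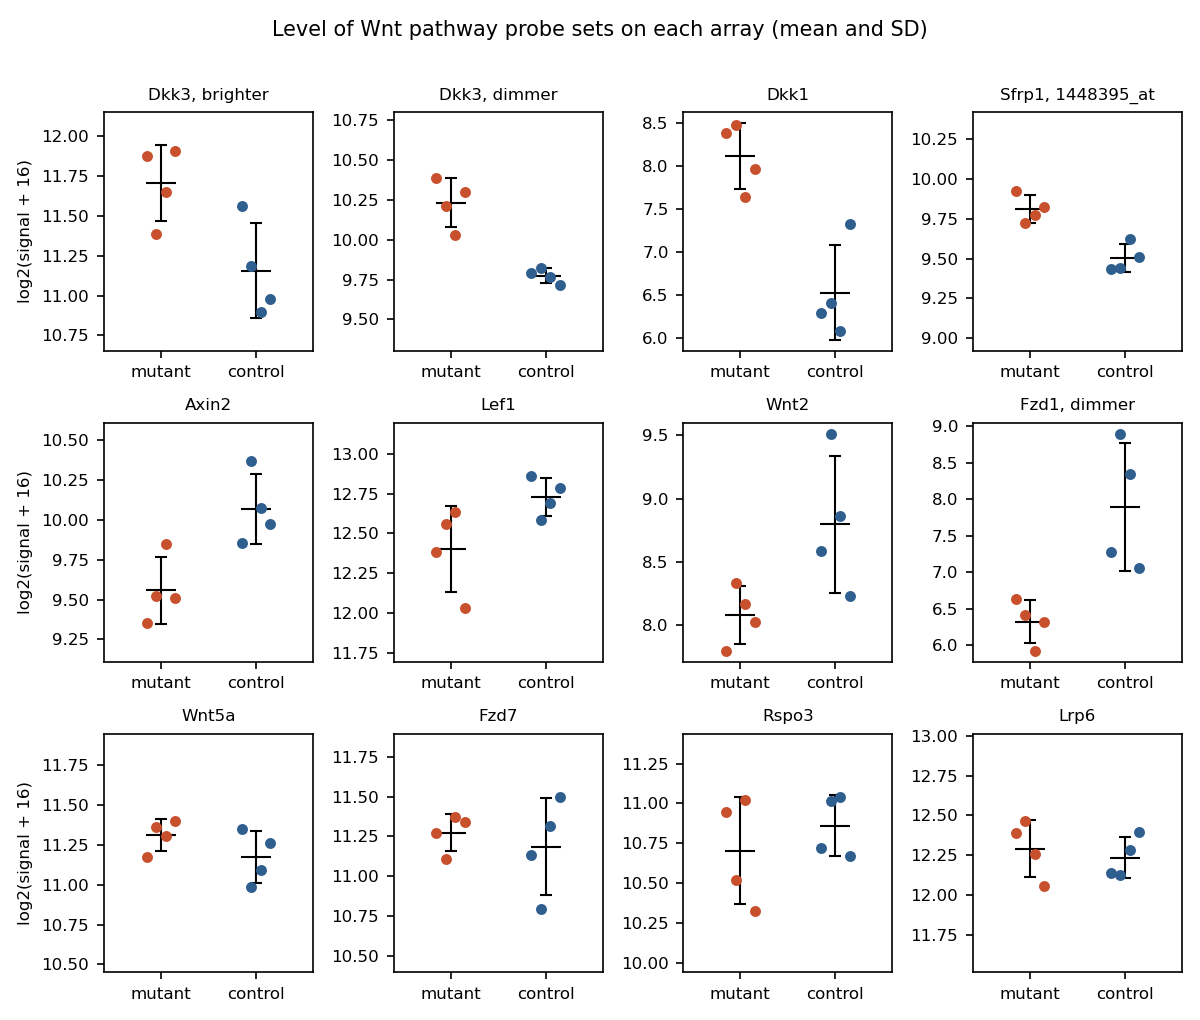
Log2(signal + 16) on each array for 12 probe sets of Wnt pathway genes; mutant pools stand left of control pools in each panel, each point is an array, and the bar and whiskers are the mean and SD of 4 arrays. The groups are separate for the dimmer Dkk3, Dkk1, the Sfrp1 probe set shown, Axin2 and the dimmer Fzd1 probe set, and overlap for the other panels.

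Other genes of the pathway were taken from a list beside the 58. The list of 84 entries covered ligand secretion, planar polarity, destruction complex partners, nuclear cofactors and common target genes, and 80 genes of it had a probe set and 70 were tested. Positive and negative changes numbered 35 each, the median was 0.01, and 0 passed. At an unadjusted p under 0.05 there were 9 higher and 5 lower genes, and the groups did not overlap for 9 higher and 1 lower, beside the 7.31%, 5.61%, 4.97% and 3.19% of all named genes given above. The hyaluronan receptor Cd44, listed as a target gene, had the smallest p at 0.36 (SE 0.066, adjusted p = 0.0654), with 12.33, 12.40, 12.35 and 12.30 in mutants 1 to 4, against 11.97, 11.93, 12.09 and 11.98 in controls 1 to 4. It was past the threshold in 7 of 17 alternatives. The 1 lower gene without overlap was Notum, an enzyme that inactivates Wnt ligands and is itself a target of beta-catenin, picked after its values were seen. Notum had 6.54, 6.28, 5.78 and 4.88 in mutants 1 to 4, against 7.65, 7.43, 7.53 and 7.07 in controls 1 to 4, above background on 1 mutant array and 4 control arrays. Its log2 change was the lowest of the list at -1.77 (SE 0.50, adjusted p = 0.236), a size that rests on mutant values mostly not above background. The Notum change was not followed under the alternatives.

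Of the other well measured genes with the smallest p in that list, Prickle1 and Celsr1, of the planar polarity branch, had log2 changes of 0.20 (SE 0.058, adjusted p = 0.243) and 0.41 (SE 0.17, adjusted p = 0.348). Sox17, a factor of endothelium that also binds beta-catenin, had one of 0.86 (SE 0.27, adjusted p = 0.260), measured with probes that may also capture related transcripts. Lgr4, a receptor for R-spondins, had 0.21, and mutants lay above controls for each of these 4. Sox17 passed without control 1 (1.62, adjusted p = 0.0187) or control 4 (1.38, adjusted p = 0.0304), and Celsr1 without control 1 (0.77, adjusted p = 0.0400). Camk2d, a calcium-dependent kinase of heart muscle, had 0.41 on the brightest of its 7 probe sets. That change was 0.063 without control 1 and 0.12 without control 4, and it passed without control 3 (0.53, adjusted p = 0.0476). From brighter to dimmer, the other tested Camk2d probe sets had 0.085, -0.021, 1.11, 0.014 and 0.71. The probe set with 1.11 was above background on only 1 control array, and that with 0.71 on 2. Negative changes among these well measured genes belonged to the cyclin Ccnd1, a common target gene (-0.28), the kinase subunit Csnk2a1 (-0.29), the nuclear cofactor Pygo1 (-1.13) and the glypican Gpc6 (-0.29), and the groups overlapped for Camk2d and for these 4. On its dimmer probe sets Ccnd1 had log2 changes of -0.07 and 0.54. None of the 10 genes passed on its brightest probe set.

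**Figure D4:**
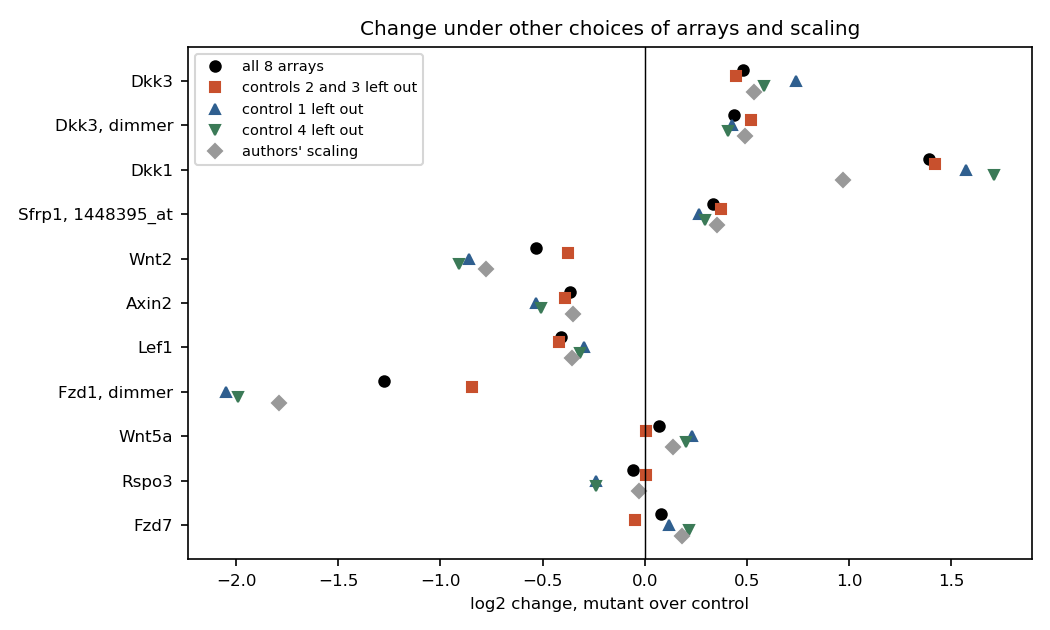
Log2 change, mutant over control, of 11 probe sets under 5 choices of arrays and scaling. Dkk3, Dkk1 and the Sfrp1 probe set stay to the right of 0 and Wnt2, Axin2, Lef1 and the dimmer Fzd1 probe set to the left under these 5 choices, while Rspo3 and Fzd7 cross 0. Median centring, which turned the sign of Lef1 to 0.17, is not drawn.

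Scaling set the sign of many small differences. Centring each array on its median moved the median change of all probe sets to 1.13, and calls then split into 17322 higher and 1832 lower, against 7 and 5, with 80.8% of changes positive, against 53.8% with quantile normalization and 40.2% on the authors' scaling. Relative to that median, 7 Wnt genes were called higher and 6 lower. The share of all probe sets called relative to the median was not counted, so these counts are not read as a result. Nkd1 and Wnt4 were among the 6 lower ones, though positive under quantile normalization and above background on 0 control arrays. Dkk3 (1.24), Dkk1 (0.83) and Wnt2 (-1.14) were among the called genes with the sign they had before, and Axin2 lay at -0.26 without a call. Lef1 (0.17), the brightest and second Ctnnb1 probe sets (0.46 and 0.12), Fzd1 (0.086) and Gsk3b (0.48) had the other sign and no call.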

How the data were processed

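RNA of 8 pools of microdissected canals, 50 ng each, was amplified and hybridised to Affymetrix mouse arrays, per the labels. The authors deposited 1 linear intensity per probe set and array; the submitters' processing notes name MAS5 for it, and detection calls are not used here. Their scaling gave every array a mean intensity of 714.971, and median intensities differed by up to 3.76 times.

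Signals were taken as log2(signal + 16) and quantile normalized, since 2% trimmed means differed by 1.12 times, over a limit of 1.1. Dropping 64 array controls and the dimmest 40% by mean left 27022 probe sets. Mutants and controls, n = 4 each, were compared with limma 3.58.1 in R 4.3.3, with array weights and eBayes with trend and robust, two-sided, with Benjamini-Hochberg adjustment over all 27022. The fit was tested on simulated data. Names came from the platform annotation: 34958 probe sets had 1 symbol, 932 several and 9211 none, and 34754 matched RefSeq of GRCm38.p6 by gene ID. Levels of different probe sets are not comparable, and the number of arrays limits the precision. The labels do not say that pools came from separate litters, so p-values measure the spread between these pools.

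The genes, lists and tests were chosen with earlier results of these data known. The brightest probe set stood for a gene. Values per array are given for 14 listed genes, the 20 well measured ones with the smallest unadjusted p, and any past the threshold or, if well measured, without overlap of the groups (29 in all); of the other pathway genes, the 10 well measured ones with the smallest unadjusted p are named. Fzd3, Fzd5, Lrp5, Notum and untested probe sets were singled out after their values were seen. Alternatives were other scalings, pseudocounts, filters, weights, arrays left out, a replicate block and probe set means.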

Additional observations from a re-analysis of the deposited data

Results flagged for a closer look

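On 3 probe sets a single array stood far from the others of its group by Dixon's test at the 95% level, among 100 groups of 4 arrays examined, where chance gives about 1 in 20. For Fzd5 this was control 4, at 7.53, while the other controls lay between 4.72 and 4.96. For Axin1 it was mutant 1, at 6.72, against 7.89 to 8.03 on the other mutants. For Wnt7b it was mutant 3, at 5.05, against 6.61 to 6.92 on the other mutants.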

How the results depend on the processing

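No Wnt gene passed in the main fit or with controls 2 and 3 left out. None passed under the authors' scaling, other pseudocounts, filters, weights or probe set means. Median centring, also with all arrays, gave 7 higher and 6 lower relative to the median change, as described below. Leaving out 1 array at a time gave 0 to 3 higher and 0 lower Wnt genes past the threshold, 2 to 6 higher and 0 to 3 lower at an unadjusted p under 0.05, 1 to 3 higher and 1 to 4 lower without overlap, a median change of -0.040 to 0.013, and 0 to 6 higher and 0 lower other pathway genes past the threshold. Over all probe sets these fits called 3 to 1417 higher and 2 to 371 lower, and 1321 to 4676 and 1110 to 2534 at an unadjusted p under 0.05, and the cause was not tested.

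Calls over all probe sets, 7 higher and 5 lower, became 41 and 22 on the authors' scaling, 17322 and 1832 with median centring, 22 and 12 with a pseudocount of 64, 14 and 12 with no filter, 13 and 10 with the background filter, 6 and 10 without weights, and 1 and 1 with controls 2 and 3 left out. Counts at an unadjusted p under 0.05 were 3939 lower on the authors' scaling, 17643 higher with centring, 3366 and 2928 with no filter, and 1229 and 780 with controls 2 and 3 left out. For Wnt genes, relative to the median change of 1.13, centring gave 7 higher and 6 lower past the threshold, 10 and 9 at an unadjusted p, 0 and 7 without overlap, and a median of 0.13. No share over all probe sets was counted relative to that median, here or for the other pathway genes below. The authors' scaling gave 6 lower at an unadjusted p and 0 higher and 4 lower without overlap. Without overlap there were 3 lower with controls 2 and 3 left out, 0 higher with the background filter, which also left 1 higher at an unadjusted p, and 2 higher and 2 lower with probe set means. Other pathway genes past the threshold numbered 15 higher and 11 lower with centring and 1 higher on the authors' scaling, with a pseudocount of 64 and with the background filter.

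Same-numbered mutant and control arrays are not stated to be pairs, and their deviations correlated at -0.11, 0.01, -0.13 and 0.17. With the replicate number as a block, 26 probe sets were higher and 34 lower, 0 Wnt genes passed, and the log2 change was -0.0073 for Lrp6 and -0.15 for Wnt9b.

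Of 49 single changes, 21 had the opposite sign under at least 1 alternative, and the cause was not tested. Relative to the median after centring these were Apc 0.13, Axin1 -0.50, Ccnd1 0.35, Csnk2a1 0.18, Ctnnb1 0.46 and 0.12, Dvl1 0.53, Fzd1 0.086, Gata4 0.29, Gpc6 0.14, Gsk3b 0.48 and 0.49, Lef1 0.17, Rspo3 0.051, Tcf7l2 0.56 and Wnt9b -0.64. On the authors' scaling they were Axin1 -0.076, Ctnnb1 0.032, Gsk3b 0.0026, Sfrp5 -0.23 and Wnt9b -0.47. With controls 2 and 3 left out they were Fzd7 -0.046, Rspo3 0.0068, Wnt11 0.012 and Wnt9b -0.064, and with probe set means Ctnnb1 0.082 and Rspo3 0.044. One array left out at a time gave -0.22 to 0.096 for Dvl1, -0.52 to 0.21 for Frzb, -0.026 to 0.10 for Lrp6, -0.24 to 0.12 for Rspo3, -0.16 to 0.045 for Tcf7l2, -0.18 to 0.032 for Wnt11 and -0.0495 to 0.40 for Wnt9b. Signal over background limits the ligands most, with 7 of 19 well measured.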
